A study of Mus musculus with 18 samples.

Results

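The small leucine-rich proteoglycans (SLRPs) form a family of matrix proteins, and the counts of 10 of their genes were followed here in cultured mouse tail tendon fibroblasts (TFs): *Dcn*, *Bgn*, *Aspn*, *Fmod*, *Lum*, *Prelp*, *Kera*, *Omd*, *Epyc* and *Ogn*. All 10 were found by symbol among the 55491 rows of the count table. The family was selected on values of these data, because *Dcn* and *Lum* had been noted as higher in the libraries from *Hif1a* knockout mice. Differences of the members between those libraries and Ctrl are therefore given as a description, with no test. RNA of 18 libraries, 3 per group, was sequenced after 4 days at a set O2 level. The Ctrl groups held TFs of mice without Cre, called wild-type in the labels, in 20% or 1% O2. The study's methods describe Cre-negative control mice as carrying the floxed *Hif1a* allele themselves (*Hif1a* fl/fl). TFs labelled cKO came from mice in which Cre under the control of *Scleraxis* deletes the floxed *Hif1a* allele (*Hif1a* fl/fl), and were grown at the same O2 levels. The gesicle groups were Ctrl TFs given Cre gesicles, vesicles that carry the recombinase into cells, again at both O2 levels. All TFs crawled out of tail tendons of mice of both sexes, aged 4 to 6 months, into collagen gel and were passaged. *Scleraxis*-Cre acts from development onwards and also in skeletal progenitors, so cKO TFs had lived in a mutant animal, whereas gesicles act on grown cells.

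SLRPs are secreted proteins with a curved core of leucine-rich repeats that bind collagen fibrils and set their thickness and spacing. Decorin (*Dcn*), biglycan (*Bgn*) and asporin (*Aspn*) make up class I, and the former pair carry chondroitin or dermatan sulphate chains. Fibromodulin (*Fmod*), lumican (*Lum*), PRELP (*Prelp*), keratocan (*Kera*) and osteoadherin (*Omd*) make up class II, several of which can carry keratan sulphate, and epiphycan (*Epyc*) and osteoglycin (*Ogn*) belong to class III. In tendon, decorin, biglycan, fibromodulin and lumican are known for their part in fibril growth, and several members also bind growth factors such as TGF-β.

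Across the libraries, totals ranged from 6857558 counts (cKO 1% O2, replicate 1) to 51806453, and the next smallest was 26967440. *Hif1a* itself was not lower in the libraries labelled cKO, with a mean of 348 CPM in Ctrl 20% O2, 419.5 in Ctrl 1% O2, 377 in cKO 20% O2 and 443 in cKO 1% O2. Reads of the floxed exon are not told apart in a count per gene, and Cre transcripts were counted only in groups labelled cKO (10 and 5 counts in all). Of the 11 tendon fibroblast markers, 10 were above 1 CPM on average in every group, whereas the remaining marker, *Kera*, was near 0. Summed markers reached at most 0.885 CPM for endothelium, 0.236 for keratinocytes, 0.116 for adipocytes and 2.89 for osteoblasts. Other lists were not at 0, with sums of up to 25.4 CPM for leukocytes, 47.7 for skeletal muscle, 146 for mural cells, 16.3 for Schwann cells and 905 for chondrocytes. Of the chondrocyte sum, *Comp*, which tendon also expresses, reached 877 CPM and *Sox9* 50.8, whereas *Acan* reached 0.0232 CPM, and of the leukocyte sum *Lyz2* reached 22.2 CPM and *Ptprc* 0.162. Levels are given as CPM (read counts scaled to library size with TMM factors), either for each library or as mean ± SD over the 3 libraries of a group. In bulk RNA fewer cells of a type and less RNA per cell cannot be told apart.

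All members but *Bgn* lie in 3 short stretches of the genome (GRCm38). *Dcn* (97479609 to 97518143), *Lum* (97565128 to 97572703), *Kera* (97606879 to 97613692) and *Epyc* (97644068 to 97682454) follow each other on the plus strand of chromosome 10 within 202.8 kb. *Aspn* (49544443 to 49567565), *Omd* (49582462 to 49592822) and *Ogn* (49608046 to 49624501) span 80.1 kb of chromosome 13 and lie within *Cenpp* on the opposite strand. *Prelp* (133910304 to 133921414, minus strand) and *Fmod* (134037254 to 134048277) lie within 138 kb of chromosome 1 with no other protein-coding gene between them, and *Bgn* (73483602 to 73495933) is on the X chromosome. Exons of *Epyc* share 1041 bases with *Gm10754* on the other strand, those of *Prelp* 350 bases with *Gm15851* and those of *Aspn* 7 bases with *Cenpp*. Whether counting used strand is not given in the sources used here, so reads in those stretches cannot be assigned with certainty. Over their coding sequences, *Dcn* and *Bgn* were the most alike of all pairs, with 67.2% identity over 1040 aligned bases, and *Fmod* and *Omd* the least, with 55.2% over 1072.

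The sequence before the start site is shown for *Aspn*, *Fmod* and *Prelp*, the 3 members that were higher in 1% than in 20% O2 in all 9 pairs of libraries with the same arm and number. The share of all genes with that order was not computed, and the labels do not state that such pairs share a mouse. Each sequence is the 250 bases upstream of the RefSeq start on GRCm38.p6, 5′ to 3′ on the gene's strand: *Aspn* at chr13:49544193-49544442 (plus), *Fmod* at chr1:134037004-134037253 (plus) and *Prelp* at chr1:133921402-133921651 (minus). Capitals mark CACGT, the reverse of the hypoxia-response core ACGTG, and TATAAA or its reverse TTTATA. The core GCGTG was searched as well, and all motifs were searched on both strands.
Aspn: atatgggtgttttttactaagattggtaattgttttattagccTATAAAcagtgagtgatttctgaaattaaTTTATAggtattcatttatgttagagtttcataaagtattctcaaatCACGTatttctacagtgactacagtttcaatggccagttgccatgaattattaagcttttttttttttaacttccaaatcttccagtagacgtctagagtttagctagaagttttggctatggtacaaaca
Fmod: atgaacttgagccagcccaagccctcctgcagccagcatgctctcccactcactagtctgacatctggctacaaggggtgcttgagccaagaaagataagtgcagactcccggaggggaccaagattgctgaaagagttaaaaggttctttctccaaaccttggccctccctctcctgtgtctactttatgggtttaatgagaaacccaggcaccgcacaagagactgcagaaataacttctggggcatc
Prelp: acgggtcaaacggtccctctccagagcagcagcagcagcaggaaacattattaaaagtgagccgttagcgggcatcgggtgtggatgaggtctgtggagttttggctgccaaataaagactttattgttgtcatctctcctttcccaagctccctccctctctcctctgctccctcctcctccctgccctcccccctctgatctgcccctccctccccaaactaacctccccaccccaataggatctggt
*Aspn* held CACGT 131 bases before its start, and neither *Fmod* nor *Prelp* held any of the motifs in this window. Of the 8 members with an entry (*Dcn* and *Lum* had none), *Epyc* also held CACGT, 202 bases before the start, *Bgn* held GCGTG 199 bases before it and *Ogn* held TATAAA. Over 32851 promoters, 16.6% held ACGTG, 28.2% GCGTG and 12.4% TATAAA in the same window. A match describes only the letters.

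In Ctrl TFs in 20% O2, *Prelp* and *Bgn* were the most abundant members per exon length, at 446 ± 34.7 and 359 ± 40.7 RPKM. *Fmod* followed with 206 ± 41.4, *Aspn* with 132 ± 18.7, *Ogn* with 59.6 ± 23.4 and *Dcn* with 36.3 ± 11.4 RPKM. *Omd* (1.23 RPKM) and *Lum* (0.468 RPKM) were far lower, and *Kera* and *Epyc* were at or under 1 count per library. *Ogn* and *Dcn* overlapped between libraries in this group, as did *Kera* and *Epyc*, and the other neighbours in the order did not. By coding length, *Bgn* came before *Prelp* and *Dcn* before *Ogn*, and the exon models of these 2 genes are the longest relative to their coding part, 5838 against 1062 bases for *Dcn*. All 10 genes together held 0.521% ± 0.0214 of the counts in Ctrl 20% O2, 0.641% ± 0.0522 in Ctrl 1%, 0.659% ± 0.0619 in cKO 20%, 0.802% ± 0.105 in cKO 1%, 0.529% ± 0.0657 in gesicle 20% and 0.719% ± 0.0521 in gesicle 1% O2. Within that sum, the part of *Dcn* per exon length was 2.92% in Ctrl 20% O2 and 9.25% in cKO 20% O2, and that of *Aspn* was 10.6% and 16.2% in Ctrl TFs in 20% and 1% O2.

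**Figure D1:**
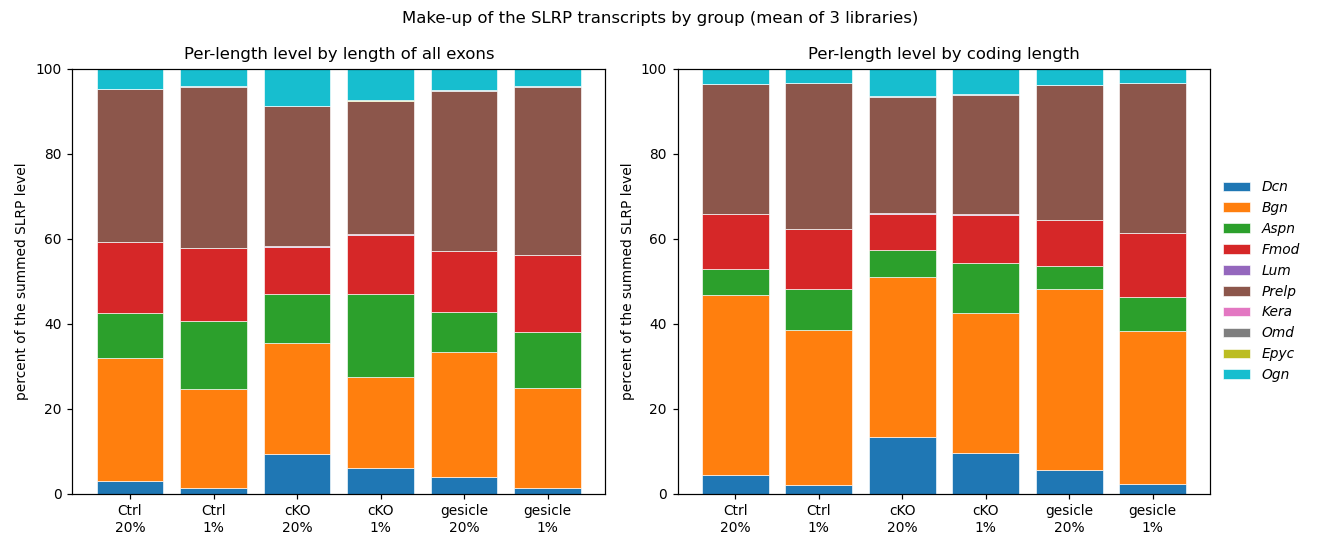
Make-up of the SLRP transcripts in the 6 groups, as the percent of the summed per-length level (mean of 3 libraries), by the length of all exons (left) and by coding length (right). *Prelp* and *Bgn* fill most of each bar, and the part of *Dcn* per exon length is 9.25% in cKO 20% O2 against 2.92% in Ctrl 20% O2.

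The libraries labelled cKO held more *Dcn* than Ctrl libraries at both O2 levels, the pattern by which the family was chosen. *Dcn*, the most studied regulator of fibril diameter, had 162, 187 and 287 CPM in replicates 1 to 3 of Ctrl 20% O2, and 111, 108 and 147 CPM in Ctrl 1% O2. In the libraries labelled cKO it had 750.3, 974 and 757 CPM in 20% O2, and 429, 939 and 828 CPM in 1% O2. The 4 groups showed no overlap between genotypes, and the lowest cKO library was replicate 1 in 1% O2, which is also the shallowest. The log2 difference was 1.96 in 20% O2 (SE 0.29, 3.91-fold) and 2.58 in 1% O2 (SE 0.29, 5.99-fold). Without that library, the log2 difference in 1% O2 was 2.87.

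*Lum*, which restrains lateral growth of fibrils, was a rare transcript in Ctrl TFs. It had 1.02, 1.42 and 1.00 CPM in Ctrl 20% O2, and 1.27, 1.04 and 1.19 CPM in Ctrl 1% O2. In the libraries labelled cKO it had 10.6, 8.07 and 18.8 CPM in 20% O2, and 4.55, 8.86 and 25.5 CPM in 1% O2. No library labelled cKO overlapped with Ctrl, and replicate 3 was the highest at both O2 levels. The log2 difference was 3.44 (SE 0.55) in 20% O2 and 3.49 (SE 0.55) in 1% O2, and the latter was 2.56 without cKO 1% O2 replicate 3.

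The other genes of the chromosome 10 stretch were also higher in cKO 20% O2, at counts near the limit of the depth. *Kera*, a keratan sulphate proteoglycan best known from the cornea, had 0, 1 and 1 counts in Ctrl 20% O2 and 12, 11 and 11 in cKO 20% O2, a ratio of 15.9 over the summed counts. *Epyc*, known from growth plate cartilage, had 0, 1 and 1 counts in Ctrl 20% O2 and 17, 14 and 55 in cKO 20% O2, a ratio of 40.2. Both ratios are a description without an interval, because these libraries chose the family. In 1% O2 the groups overlapped for both genes, with 0, 0 and 0 counts of *Kera* in Ctrl and 0, 1 and 2 in cKO. *Epyc* had 10, 5 and 2 counts in Ctrl 1% O2 and 0, 1 and 23 in cKO 1% O2, and its log2 difference of 0.67 (SE 0.98) became −2.57 without cKO replicate 3. The nearest gene before *Dcn*, *Btg1*, had a log2 difference of 0.0017 in 20% O2 (SE 0.18) and −0.080 in 1% O2 (SE 0.18), and *Ccer1* after *Epyc* was at 0.

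On chromosome 13, *Ogn* was higher in the libraries labelled cKO, whereas its neighbours differed less. *Ogn* had 103, 219.7 and 136 CPM in Ctrl 20% O2 against 266, 432 and 329.8 CPM in cKO 20% O2. In 1% O2 it had 110.2, 274 and 143 CPM in Ctrl and 348, 428 and 401 CPM in cKO. The groups did not overlap at either O2 level, and the log2 difference was 1.16 at both (SE 0.34). Of all 16174 genes, 3.34% were higher in cKO without overlap at both O2 levels. *Aspn* differed by 0.44 (SE 0.27) in 20% and 0.60 (SE 0.28) in 1% O2, the former 0.10 without cKO 20% O2 replicate 2. *Omd*, a bone matrix proteoglycan, averaged 2.77 ± 0.666 CPM in Ctrl 20% O2 and 5.31 ± 1.37 in cKO 20% O2, with 4.91 ± 2.98 and 4.82 ± 1.75 CPM in 1% O2. *Ecm2*, the next gene before *Aspn* and itself a relative of the family, had log2 differences of 0.61 (SE 0.22) and 0.69 (SE 0.22).

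The abundant members outside these stretches stood close together in the genotypes. *Bgn* had 2192 ± 248 CPM in Ctrl and 2452 ± 231 CPM in cKO in 20% O2, a log2 difference of 0.16 (SE 0.13), and 0.18 (SE 0.13) in 1% O2. *Prelp* differed by 0.17 (SE 0.17) and 0.036 (SE 0.17), and *Fmod* by −0.30 (SE 0.29) and 0.0027 (SE 0.29). In each of the genotype comparisons, 5 of the 9 members that passed the filter on low counts did not overlap between groups: *Dcn*, *Lum* and *Ogn* at both O2 levels, *Omd* and *Epyc* in 20% O2 and *Bgn* and *Aspn* in 1% O2. Over all 16174 genes, 21.0% did not overlap between these groups in 20% O2 and 27.0% in 1% O2, and 3.34% were higher in cKO without overlap at both. Among all 15850 genes tested, 0.347% were called in 20% O2 and 0.0379% in 1% O2, and nothing is read from the members' count because the same libraries chose them. *Kera* did not pass the filter, and *Epyc* passed it only through its high groups.

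**Figure D2:**
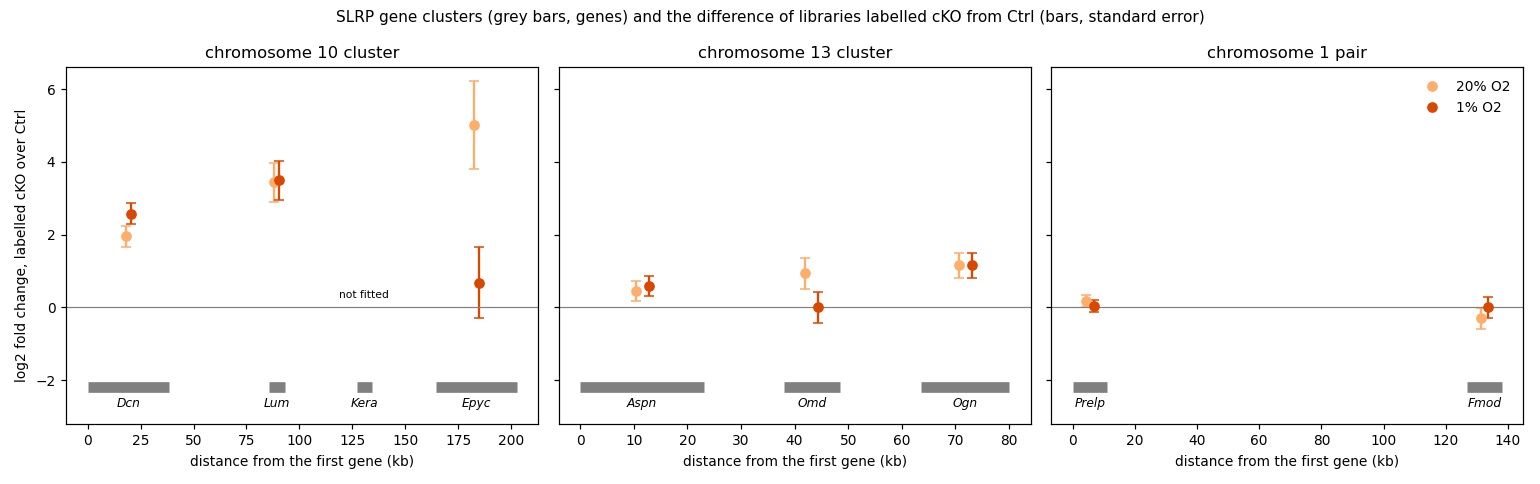
Log2 fold change of the libraries labelled cKO over Ctrl (vertical axis; bars, standard error) for members in their order along 3 stretches of the genome, with the distance from the start of the left-most gene in kb (horizontal axis; grey bars, genes). On chromosome 10 *Dcn* and *Lum* stand at 1.96 to 3.49 at both O2 levels, whereas *Prelp* and *Fmod* on chromosome 1 stand between −0.30 and 0.17.

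Some markers of other cell types also differed between the genotypes in 20% O2, and less so in 1% O2. On a list of 7 genes of sheath or progenitor-like fibroblasts, 2 were higher in cKO than in Ctrl 20% O2 by edgeR and 0 in 1% O2: *Dpp4* (0.495 ± 0.169 to 3.70 ± 2.16 CPM, adjusted p = 0.0449) and *Pi16* (50.4 ± 8.85 to 173.9 ± 25.8 CPM, adjusted p = 0.0476). Of all 15850 genes, 0.347% were called in 20% O2 and 0.0379% in 1% O2. Calls over all genes in 20% O2 fell from 55 to 1 with only the compared groups, and single list genes were not followed there. The lists were chosen with earlier results known, so nothing is read from these calls. Called or not, 6 of the 7 genes had a log2 difference above 0 in 20% O2 and 5 in 1% O2. The sum over the 7 genes ran from 1520 to 1988 CPM in Ctrl 20% O2 and from 2068 to 3497 in cKO 20% O2. In 1% O2 it ran from 2716 to 2792 CPM in Ctrl and from 2740 to 3718 in cKO, which overlapped. The sum of 4 mural cell markers ran from 86.8 to 146 CPM in Ctrl 20% O2 and from 29.7 to 38.7 in cKO 20% O2. In 1% O2 it overlapped, with 39.9 to 86.8 CPM in Ctrl and 27.7 to 42.2 in cKO, and 0 of the 4 were called at either O2 level. Of 10 tendon fibroblast markers tested, 5 were higher and 5 lower in cKO 20% O2, and 0 were called. The sum over all 11, *Fmod* and *Kera* among them, was lower in cKO 20% O2 without overlap. It ran from 11229 to 13504 CPM in Ctrl 20% O2 and from 4466 to 9989 in cKO 20% O2. In 1% O2 it overlapped, with 5965 to 13628 CPM in Ctrl and 5362 to 8849 in cKO. Of 2 skeletal muscle markers tested, *Acta1* was lower in cKO 20% O2 (30.6 ± 10.1 to 12.6 ± 2.93 CPM, adjusted p = 0.0449). On that list *Acta1* reached 41.8 CPM and *Des* 7.46, whereas *Myh1* reached 0.177, *Myod1* 0.0255 and *Ckm* was at 0 in every library. The part of these cell types in the SLRP differences was not tested.

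With gesicles, *Dcn* and *Lum* of Ctrl TFs stood nearer to untreated Ctrl. *Dcn* had 299, 195 and 369 CPM in the gesicle group in 20% O2, and 164, 125 and 181 CPM in 1% O2, log2 differences from Ctrl of 0.44 (SE 0.29) and 0.36 (SE 0.29). *Lum* had 1.51, 3.67 and 2.58 CPM in the gesicle group in 20% O2, above all 3 Ctrl libraries as 6.88% of all genes were (log2 difference 1.17, SE 0.54), and 0.61, 1.68 and 1.71 CPM in 1% O2 (0.19, SE 0.56). These 2 genes have no p here because the Ctrl libraries also stand in the comparison that chose them. Of the other 7 members, 0 were called by edgeR at either O2 level, against 0.0247% of all 16174 genes in 20% O2 and 0% in 1% O2, and 0 had an unadjusted p under 0.05. DESeq2 and limma voom called 0 as well. *Ogn*, higher in cKO, differed by 0.12 (SE 0.32) and 0.19 (SE 0.32) with gesicles, and *Kera* had 4, 1 and 4 counts in gesicle 20% O2. Gesicle and genotype comparisons share their Ctrl libraries, and the difference between them was not tested.

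**Figure D3:**
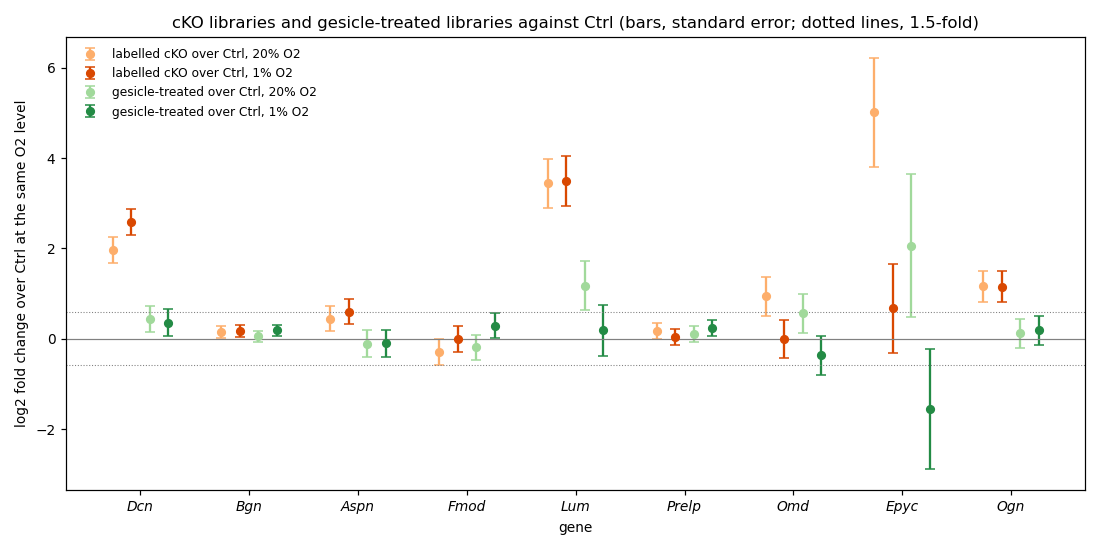
Log2 fold change over Ctrl at the same O2 level (bars, standard error) of the libraries labelled cKO (orange) and of gesicle-treated libraries (green) for the 9 members that passed the filter. *Dcn*, *Lum* and *Ogn* stand at 1.16 or more in the libraries labelled cKO at both O2 levels, and gesicle-treated libraries stand at 0.44, 1.17 and 0.12 for them in 20% O2.

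No member passed edgeR's thresholds for low O2 within a single arm, and *Aspn* had the smallest adjusted p in Ctrl and cKO. *Aspn*, which binds collagen at the site that decorin uses and can bind TGF-β, had 332, 259 and 338 CPM in Ctrl 20% O2 and 717, 491 and 650.1 CPM in Ctrl 1% O2. It had 243, 589.7 and 429 CPM in cKO 20% O2 and 739, 982 and 1095 CPM in cKO 1% O2. In the gesicle groups it had 329, 188 and 347 CPM in 20% O2 and 578, 417 and 737 CPM in 1% O2. In each arm the 3 libraries in 1% O2 lay above the 3 in 20% O2. *Aspn* was the only member with that order in all arms, which 4.41% of all 16174 genes showed. The log2 fold change was 1.01 in Ctrl (SE 0.28, edgeR adjusted p = 0.0916), 1.16 in cKO (SE 0.28, adjusted p = 0.0503) and 1.00 with gesicles (SE 0.30, adjusted p = 0.0861). Ctrl libraries with the same number deviated together at the 2 O2 levels, and when the fit held a block for each genotype and number, *Aspn* was called in Ctrl (log2 fold change 1.00, adjusted p = 0.0216). With that block edgeR also called it in cKO (1.24, adjusted p = 0.0104) and with gesicles (1.02, adjusted p = 0.00875). In those arms same-numbered libraries did not deviate together in every pair. Over the alternatives, *Aspn* was called in 5 of 16 in Ctrl, 8 of 16 in cKO and 4 of 15 with gesicles. Without cKO 20% O2 replicate 2, it was called in cKO (1.51, adjusted p = 0.010), where the calls over all genes went from 333 to 1373.

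*Fmod* and *Prelp*, neighbours on chromosome 1, were also higher in 1% O2 for every number in each arm, an order whose share over all genes was not computed. *Fmod*, which shares with lumican a binding site on collagen, had 789, 729 and 528 CPM in Ctrl 20% O2 and 849, 1056 and 860.3 CPM in Ctrl 1% O2. It had 347, 569 and 749 CPM in cKO 20% O2 and 638, 884 and 1255 CPM in cKO 1% O2, where the groups overlapped. With gesicles it had 804, 538 and 450.1 CPM in 20% O2 and 1219, 1109 and 1052 CPM in 1% O2. The log2 fold changes were 0.44 in Ctrl (SE 0.29, adjusted p = 0.497), 0.74 in cKO (SE 0.29, adjusted p = 0.188) and 0.91 with gesicles (SE 0.28, adjusted p = 0.0957) by edgeR. *Prelp*, which anchors basement membranes to connective tissue, had 1612 ± 125 CPM in 20% and 2250 ± 544 CPM in 1% O2 in Ctrl, 1825 ± 128 and 2312 ± 320.1 CPM in cKO, and 1735 ± 291 and 2659 ± 288 CPM with gesicles. Its log2 fold changes were 0.49 (adjusted p = 0.196), 0.35 (adjusted p = 0.29) and 0.62 (adjusted p = 0.0674).

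For *Dcn* the O2 difference had the opposite sign. From the values above, its libraries in 1% O2 lay below those in 20% O2 in Ctrl and with gesicles, and overlapped with them in cKO. Of all 16174 genes, 29.7% did not overlap between the O2 levels in Ctrl and 24.0% with gesicles. The log2 fold change was −0.79 in Ctrl (SE 0.28, edgeR adjusted p = 0.192), −0.17 in cKO (SE 0.28, adjusted p = 0.772) and −0.87 with gesicles (SE 0.29, adjusted p = 0.125). The difference between the cKO and Ctrl responses was 0.62 (SE 0.39), given without a p. Ctrl and cKO libraries also stand in the comparison that chose *Dcn*, so its p-values in those arms are a description only.

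The remaining members had unadjusted p-values above 0.05 in each arm, or were too rare to test. *Bgn*, a ligand of Toll-like receptors when released from matrix, had log2 fold changes of 0.097 in Ctrl, 0.12 in cKO and 0.22 with gesicles, each with an SE of 0.13. *Ogn* had 0.21, 0.20 and 0.26 (SE 0.32 to 0.33). *Lum* had 0.035 (SE 0.54), 0.091 (SE 0.48) and −0.96 (SE 0.54). *Omd* ranged from 2.13 to 8.14 CPM over all libraries, and its fold changes were 0.83, −0.099 and −0.11 (SE 0.42 to 0.43). *Epyc*, with at most 55 counts in a library, had 2.82 (SE 1.34), −1.52 (SE 0.90) and −0.79 (SE 1.37). *Kera* had 12, 11 and 11 counts in cKO 20% O2 and 0, 1 and 2 in cKO 1% O2. The ratio of 0.12 over the summed counts is a description without an interval, because the cKO 20% O2 libraries also chose the family. In the shallow replicate 1 of cKO 1% O2, a count of 0 allows up to 0.437 CPM.

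Of the 9 members that passed the filter, edgeR called 0 in each arm, against 1.88% of all genes in Ctrl, 2.1% in cKO and 2.41% with gesicles. Their median log2 fold change was 0.44 in Ctrl, 0.12 in cKO and 0.22 with gesicles, beside 0.00020, −0.029 and −0.020 over all genes. At an unadjusted p under 0.05 there were 3 in Ctrl (*Dcn*, *Aspn* and *Prelp*), 2 in cKO (*Aspn* and *Fmod*) and 4 with gesicles (*Dcn*, *Aspn*, *Fmod* and *Prelp*). The share of all genes under that cut was not computed, so no member count at it is read as a result. DESeq2 called *Aspn* in Ctrl and in cKO, and *Aspn*, *Dcn*, *Fmod* and *Prelp* with gesicles, and limma voom called 0 in Ctrl, 1 in cKO (*Aspn*) and 0 with gesicles. Over all genes, DESeq2 called 696 in Ctrl, 886 in cKO and 732 with gesicles, and limma voom called 376, 308 and 475. For the difference in O2 response between cKO and Ctrl, 0 of the 7 members tested were called by edgeR, DESeq2 or limma voom, against 0% of all genes by edgeR, and 1 (*Epyc*) had an unadjusted p under 0.05. *Epyc* passed the filter only through its high groups, so nothing is read from that p.

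When the O2 response was averaged over the 3 arms, a comparison added after the values of the separate arms had been seen, 3 of the 9 members passed edgeR's test. *Aspn* rose by 1.05 on the log2 scale (SE 0.17, adjusted p = 0.000521) and *Fmod* by 0.70 (SE 0.16, adjusted p = 0.00594), and *Dcn* fell by 0.61 (SE 0.17, adjusted p = 0.0141). The Ctrl and cKO libraries in this average also chose *Dcn*, so its p and its calls are a description only. *Prelp* had an adjusted p of 0.00297, with a log2 fold change of 0.48 (SE 0.10) under the 1.5-fold minimum. Of all 16174 genes, 10.5% were called in this comparison. The median log2 fold change of the 9 members was 0.20, and that of all genes was −0.024. *Aspn* and *Fmod* were called in 26 of 26 alternatives and *Dcn* in 21 of 26. *Dcn* fell short of the fold minimum, with an adjusted p of 0.033 or less, without Ctrl 20% O2 replicate 3, cKO 20% O2 replicate 2, cKO 1% O2 replicate 1, gesicle 20% O2 replicate 3 or gesicle 1% O2 replicate 2. The average takes the libraries as separate, although Ctrl and gesicle libraries with the same number deviated together.

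**Figure D4:**
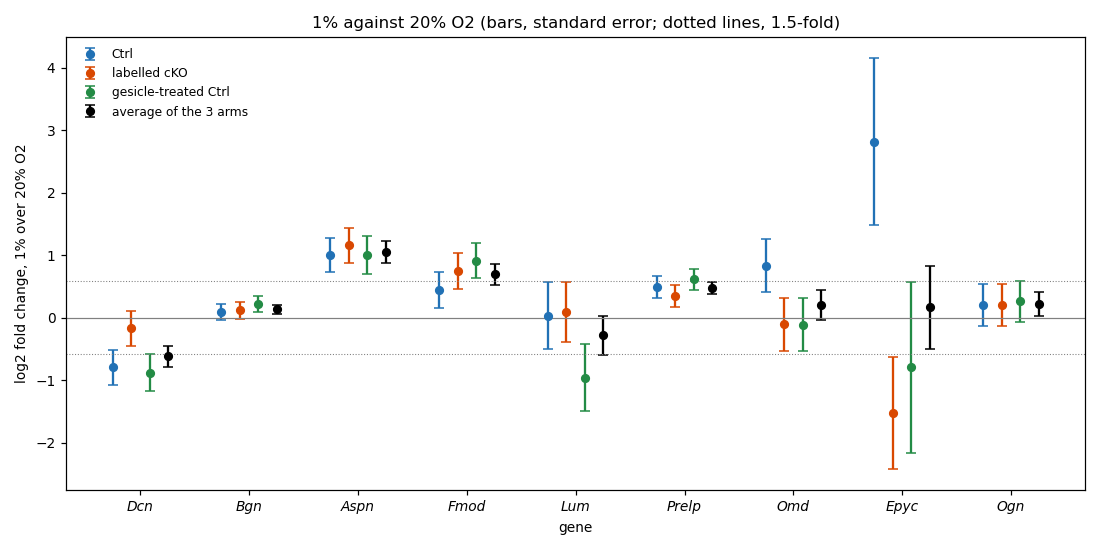
Log2 fold change of 1% over 20% O2 (bars, standard error) for the 9 members that passed the filter, in Ctrl (blue), in the libraries labelled cKO (orange), in gesicle-treated Ctrl (green) and averaged (black). *Aspn* stands between 1.00 and 1.16 in every arm, *Fmod* and *Prelp* are above 0 in every arm, and *Dcn* is at −0.79, −0.17 and −0.87.

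**Figure D5:**
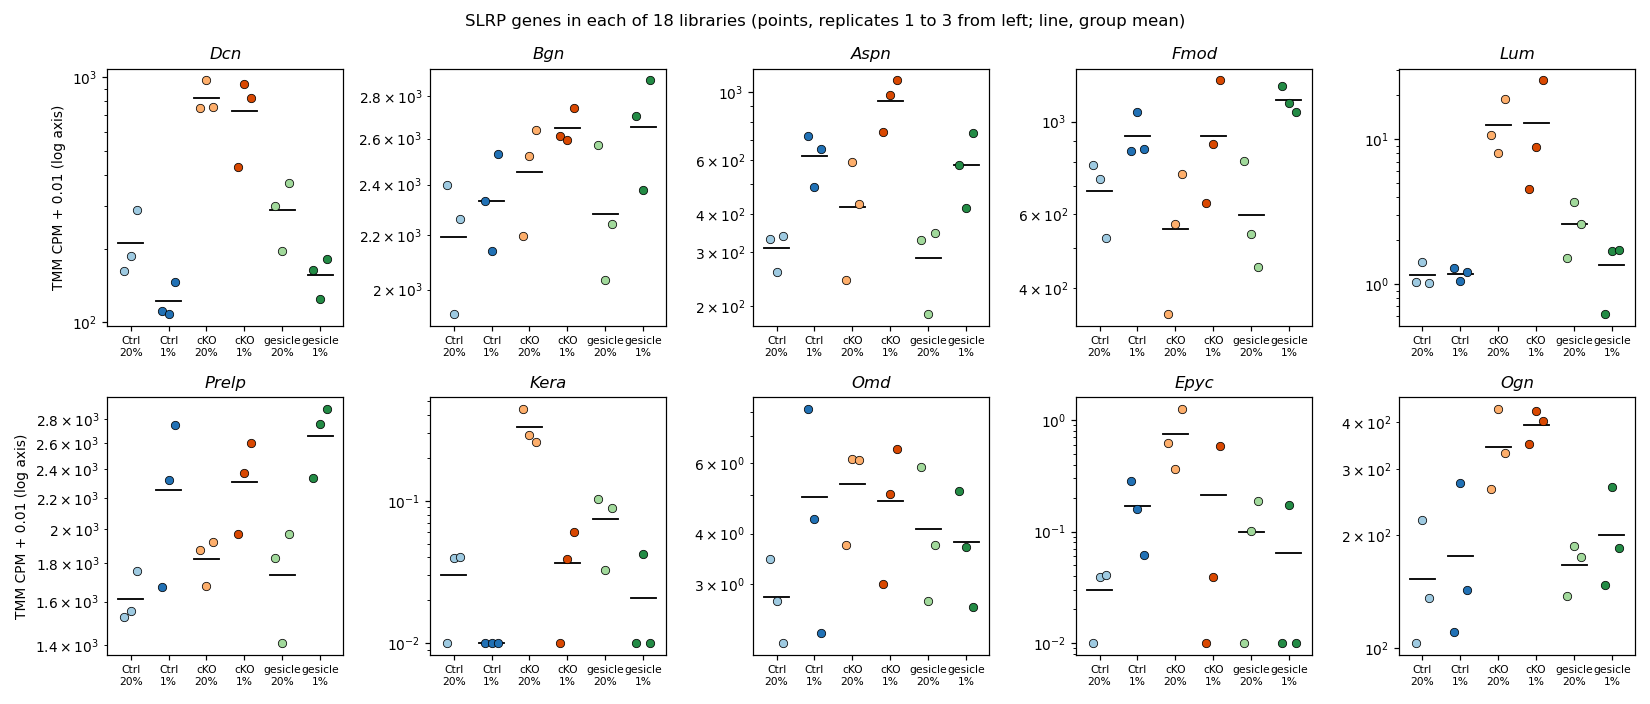
CPM of each SLRP gene (vertical log axis, 0.01 CPM added; each panel has its own range) in the 18 libraries, with points for replicates 1 to 3 from left to right and a line at the group mean. Within each O2 level, the libraries labelled cKO lie above the Ctrl libraries for *Dcn*, *Lum* and *Ogn*. For *Aspn* the libraries in 1% O2 lie above those in 20% O2 within each arm.

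Relatives of the family outside the 10 genes were mostly scarce. Of 9 such genes, 7 passed the filter in the fit of 18 libraries, and 0 were called within any arm, by genotype or with gesicles. Averaged over the arms, *Podnl1* (0.82, SE 0.13, edgeR adjusted p = 0.000462) and *Optc* (0.89, SE 0.22, adjusted p = 0.00764) rose in 1% O2, and *Podn* fell by 0.62 on the log2 scale (SE 0.19, adjusted p = 0.0269). *Optc*, the opticin gene, lies next to *Prelp* on chromosome 1. *Btg1*, next to *Dcn*, rose by 0.59 (SE 0.093, adjusted p = 0.000355), and *Cenpp*, which spans the chromosome 13 genes, fell by 0.61 (SE 0.19, adjusted p = 0.0261). Only *Ecm2* and *Tsku* of these relatives reached a mean of 7 CPM in every group, far under the abundant members.

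Genes that build the sugar chains of SLRPs, the proteases that process them and their binding partners are given beside the shares of all genes called, which were 0% to 2.41% in the single comparisons and 10.5% in the averaged one. Of 7 enzymes for the linkage region, 0 were called in any comparison, and of the 7 keratan sulphate enzymes that passed the filter, 0 were called in any. Of 15 chondroitin and dermatan sulphate enzymes tested, *Chst11*, a chondroitin 4-O-sulfotransferase, fell by 0.82 in the averaged O2 comparison (SE 0.24, adjusted p = 0.0198) and the others did not pass. Among 11 proteases that process SLRPs or their propeptides, *Mmp2*, a gelatinase, rose from 160 ± 18.2 in Ctrl to 320.1 ± 55.5 CPM in cKO in 20% O2 (log2 difference 0.99, SE 0.15, edgeR adjusted p = 0.0233). *Mmp13*, a collagenase, fell by 1.47 in the averaged comparison (SE 0.36, adjusted p = 0.00764). Among 12 signalling partners, *Tlr2*, a receptor for biglycan, rose in cKO TFs in 1% O2 from 8.68 ± 0.689 to 16.3 ± 2.10 CPM (log2 fold change 0.92, SE 0.20, adjusted p = 0.0334), and *Ccn2* fell by 0.74 in the averaged comparison (SE 0.16, adjusted p = 0.00427). Of the 11 collagens and fibril partners, 0 were called in any comparison, and their median log2 difference between cKO and Ctrl was −0.49 in 20% O2 and −0.66 in 1% O2, beside 0.034 and 0.0030 over all genes.

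The genes with the profile most like that of each member were sought among 12824 genes, by the mean absolute difference of log2 CPM over the 6 group means after centring. *Dcn* was closest to *Dpp4* (0.13), *Dapk2* (0.21) and *Efhd1* (0.24), and *Lum* to *Chodl* (0.18), *Dpp4* (0.28) and *Tpm3-rs7* (0.30). *Aspn* was closest to *Gm21399*, *Gm7204* and *Tmem35a* (0.056 to 0.065), *Fmod* to *Lingo1*, *Chac1* and *Herpud1* (0.055 to 0.059) and *Prelp* to *Rarres1*, *Cd38* and *Pdia6* (0.033 to 0.046). *Ogn* was closest to *Tmem204*, *Serpina3c* and *mt-Nd6* (0.092 to 0.13), *Bgn* to *Lypla2*, *Zfp87* and *Cbll1* (0.015 to 0.022), *Omd* to *Enpp1*, *Zfp968-ps* and *Bmp6* (0.033 to 0.050) and the rare *Epyc* to *Mmp3*, *Mcpt8* and *Shisa2* (0.43 to 0.47). Among the members themselves, *Dcn* and *Lum* stood 0.39 apart, *Bgn* and *Prelp* 0.16, and *Fmod* and *Prelp* 0.18. These distances describe 6 group means that share libraries, and carry no test.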

How the data were processed

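RNA of 18 libraries of mouse tail TFs was sequenced with poly-A selection. Per the paper's methods, the authors trimmed the reads with Cutadapt, aligned them by STAR against GRCm38 and ran RSEM 1.3.3. The authors deposited the resulting estimated counts as whole numbers, without normalisation, for 55491 rows (4 of them transgenes). Estimated counts leave reads shared by related genes divided by a model. The labels and the paper give different serum levels.

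Genes kept by filterByExpr were tested with edgeR 4.0.16 (TMM, quasi-likelihood, 1 coefficient per group), on 12 Ctrl and cKO libraries (15850 genes) or all 18 (16174 genes). Adjustment was by Benjamini-Hochberg over all genes tested, and calls needed both an adjusted p below 0.05 and a change of 1.5-fold or more. RPKM used GENCODE exon lengths. DESeq2 1.42.0 and limma 3.58.1 (voom) were alternatives. Depth set a floor of 3 counts per library, 0.0579 to 0.437 CPM, which covers counting error only. The scripts were tested on simulated data.

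The members and lists were chosen with earlier results of these data known. Named were the 10 members, their relatives and genomic neighbours, *Hif1a*, up to 3 called genes per list and direction, and the 3 closest profiles. *Comp*, *Sox9*, *Acan*, *Lyz2*, *Ptprc*, *Des*, *Myh1*, *Myod1* and *Ckm* were named from their lists after their values were seen. No pair of the 18 libraries agreed within sampling noise (lowest chi-square per degree of freedom 14.1). Same-numbered libraries, whose origin from the same mouse the labels do not state, deviated together between Ctrl 20% and 1% O2 (correlations 0.271 to 0.458) and between Ctrl and gesicle libraries (0.193 to 0.462), but not in every pair of the cKO or gesicle O2 comparisons or between genotypes. P-values measure the spread between these libraries.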

Additional observations from a re-analysis of the deposited data

Results flagged for a closer look

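The O2 changes of *Epyc* had opposite signs in the Ctrl and the cKO arm, at low counts and without a call. Over libraries with the same number, its log2 change from 20% to 1% O2 (0.1 CPM added) was above 0 in all 3 Ctrl pairs (mean 1.02) and below 0 in all 3 cKO pairs (mean −1.88). The edgeR test of the difference between the arms gave −4.34 (SE 1.61) with an adjusted p of 1.0. The counts behind it were 0, 1 and 1 against 10, 5 and 2 in Ctrl, and 17, 14 and 55 against 0, 1 and 23 in cKO, most of them at or near the floor of 3 counts. With gesicles, 1 of the 3 same-number pairs was above 0 (mean −0.34). *Epyc* passed the filter on low counts only through its high groups, and the cKO 20% O2 libraries also chose the family. Nothing is therefore read from the test or from the opposite signs. Exons of *Epyc* also share 1041 bases with *Gm10754* on the other strand, and the part of those reads was not tested.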

How the results depend on the processing

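Of 1372 values of single members under alternatives, 1333 kept their direction and side of the threshold or moved by less than the spread between replicates. The number of members called with O2 in Ctrl was 0, and became 1 with DESeq2, with no filter on low counts, with a block of genotype and replicate number and with only the compared groups, and 2 with DESeq2 and the replicate block. In cKO it was 0, and became 1 with DESeq2 (with and without the replicate block), limma voom, RLE size factors, no filter or all 18 libraries, and 2 with the block of genotype and replicate number. With gesicles it was 0, and became 4 with DESeq2 (with and without the replicate block), 3 with the block of genotype and replicate number, and 1 with no filter or the replicate block (*Prelp*, log2 fold change 0.61, adjusted p = 0.0363). Leaving out single libraries gave 0 to 1 members in cKO. The replicate block in edgeR changed no other count of members, and in the averaged comparison it left 3. For *Ogn* the difference of the O2 response ran from −0.36 to 0.47, and for *Epyc* the averaged response ran from −1.17 to 0.48, when single libraries were left out. The causes were not tested. Over all genes, calls rose with DESeq2 from 298 to 696 (Ctrl), 333 to 886 (cKO) and 390 to 732 (gesicles) for O2, from 55 to 425 and 6 to 302 for genotype in 20% and 1% O2 and from 4 to 46 for gesicles in 20% O2, and with no filter from 333 to 511, 55 to 281, 6 to 111 and 4 to 23 for O2 in cKO, genotype in 20% O2, genotype in 1% O2 and gesicles in 20% O2. limma voom called 93 for genotype and 9 for gesicles in 20% O2. With only the compared groups, 84 (cKO) and 120 (gesicles) were called for O2 and 1 for genotype in 20% O2, and leaving out single libraries gave 1 to 154 for the latter, and 116 to 261 (Ctrl), 98 to 1373 (cKO) and 148 to 346 (gesicles) for O2. In cKO the 1373 came without cKO 20% O2 replicate 2, and the other libraries gave 98 to 194. Calls of single genes outside the family were not followed across alternatives. Median differences of the members between cKO and Ctrl were 0.94 and 0.60 in 20% and 1% O2, and 0.62 and 0.34 with *Xist*, a marker of sex, as a covariate. For its ATP cultures the paper lists Ctrl and cKO donors with unlike splits of sex. The part of sex in the genotype differences was not tested. By coding length, 24 of 60 ranks of the per-length levels moved. The depth of cKO 1% O2 replicate 1 limits what can be said of *Kera* and *Epyc*.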
